A study of Mus musculus with 9 samples.

Results

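Heat shock and chaperone genes were followed here as a group of 10 members, taken as the rows of the deposited RPKM table whose symbols are Hspa1a, Hspa1b, Hspa8, Hsp90aa1, Hsp90ab1, Dnajb1, Hsph1, Hspd1, Hspe1 and Hspb1. All 10 were found among the 24132 gene symbols of the table. They were chosen by name, with earlier results of these data known. The data came from RIPiT-seq, in which RNA crosslinked to a protein with 2 epitope tags is purified through both tags in turn and sequenced, of WDR5, a subunit of the MLL histone methyltransferase complex. RPKM are reads scaled by transcript length and by mapped reads. Of the 10 members, 8 reached an RPKM of 1 in at least 2 of the 9 libraries and entered the tests across 9787 genes, and Hspa1a and Hspa1b did not.

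All lines were mouse V6.5 embryonic stem cells (ESCs) of a 129/B6 F1 hybrid strain, grown without feeders and with LIF, that had been infected with a lentivirus and for which no knockdown of their own Wdr5 is described. In the EV line the virus carried no tagged WDR5. In the WT line it carried FLAG-HA-tagged human WDR5 of wild type sequence, and in the F266A line a FLAG-HA-tagged human WDR5 with F266A, a phenylalanine-to-alanine change at the surface that binds RNA, and without a short N-terminal stretch. The tagged lines were puromycin-selected clones picked for tagged protein near the endogenous level, so that the line and the clone cannot be told apart. Cells were fixed with 1% formaldehyde for 15 min. Each line had 2 immunoprecipitation (IP) libraries and 1 input library, so that an input had no replicate and both IPs of a line were set against the same input. The labels do not say whether the 2 IPs of a line came from separate cultures. The p-values then measure the spread between libraries, which may be technical. For differences between lines this spread comes from the pairs of IPs alone, and each single input is taken to vary as much.

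The estimated depth was 13400000 to 50200000 mapped reads per library. All 10 pluripotent ESC markers were above the filter, and their summed RPKM was 543 to 613 in the inputs and 640 to 872 in the IPs. The summed RPKM of 20 primitive endoderm markers was 52.6 to 90.3 in the inputs and 50.2 to 111 in the IPs, highest in the F266A input and in F266A IP replicate 2, with Afp and Ttr at 0 in every library. Single markers differed more than this sum. Cubn was at 2.12 and 2.24 in these 2 libraries, and at most 0.167 in the others. Col4a1 was at 5.40 and 6.98, and at most 1.03 in the others. Apoe was lower in these 2 libraries than in the EV and WT libraries, and Lamb1 and Apoa1 overlapped those lines. The fibroblast list summed to 0.646 to 1.79, with Col3a1, Dcn and Lum at 0. The library labelled F266A IP replicate 1 stood apart from its line: the summed RPKM of the Y-linked genes Ddx3y, Uty and Eif2s3y was 0.0383 in it, 7.21 in F266A IP replicate 2 and 4.43 in the F266A input, against 7.41 to 9.48 in the EV libraries and 0.182 to 0.324 in the WT libraries. Several counts of calls and differences between lines that rest on this library are therefore also given without it, and the others include it. Mouse Wdr5 had an RPKM of 5.85 to 12.9, and its row does not check the tagged constructs, which encode human WDR5.

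Heat shock proteins are molecular chaperones that bind unfolded or partly folded proteins. Hsp70 proteins bind short hydrophobic stretches and are driven by J proteins, which stimulate their ATPase, and by nucleotide exchange factors, which release the ADP. Hsp90 proteins act later on kinases and receptors, the mitochondrial chaperonin encloses proteins in a chamber, and small heat shock proteins hold unfolded proteins without ATP. Under stress the transcription factor HSF1 binds heat shock elements, arrays of alternating GAA units in the promoters of its targets, and induces part of these genes, while others are made at all times.

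Promoters are shown because HSF1 acts through them and because several members lie in near-identical or shared promoters. RefSeq (GRCm38.p6) promoter entries were matched for 7 of the 10 members, namely Hspa1a, Hspa1b, Dnajb1, Hsph1, Hspd1, Hspe1 and Hspb1. The 250 bases before each annotated start were searched on both strands for GAANNTTC and TTCNNGAA, each of which is its own reverse complement, and for the longer GAANNTTCNNGAA, which contains both. One or the other pair was present in 6 of the 7 members, all but Dnajb1, and in 12.8% of 32851 promoters of the same length. The longer motif was present in the windows of 2 members, Hspd1 and Hspe1, and in 0.466% of all promoters. The 7 members have 10 promoter entries, and a member counted when any of its entries matched. The percentages are per entry, so the 2 kinds of count are not on the same basis. Each line below gives 250 bases 5′ to 3′ on the strand of the gene, with matches to the pairs in capitals.

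Hspa1a: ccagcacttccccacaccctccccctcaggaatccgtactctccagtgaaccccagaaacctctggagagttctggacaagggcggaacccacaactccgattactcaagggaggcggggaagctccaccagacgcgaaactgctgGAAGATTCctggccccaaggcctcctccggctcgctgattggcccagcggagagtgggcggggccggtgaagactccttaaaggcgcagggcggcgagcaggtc
Hspa1b: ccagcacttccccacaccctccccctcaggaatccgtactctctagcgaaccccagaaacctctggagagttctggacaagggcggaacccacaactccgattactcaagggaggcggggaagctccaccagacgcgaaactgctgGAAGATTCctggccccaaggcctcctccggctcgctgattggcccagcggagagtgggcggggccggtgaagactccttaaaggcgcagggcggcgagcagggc
Hspe1: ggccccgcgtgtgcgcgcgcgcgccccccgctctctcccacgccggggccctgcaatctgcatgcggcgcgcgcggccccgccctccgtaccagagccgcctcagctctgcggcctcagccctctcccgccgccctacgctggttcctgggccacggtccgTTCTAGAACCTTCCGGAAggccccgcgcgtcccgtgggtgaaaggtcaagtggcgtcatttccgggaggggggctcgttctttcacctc
Hspb1: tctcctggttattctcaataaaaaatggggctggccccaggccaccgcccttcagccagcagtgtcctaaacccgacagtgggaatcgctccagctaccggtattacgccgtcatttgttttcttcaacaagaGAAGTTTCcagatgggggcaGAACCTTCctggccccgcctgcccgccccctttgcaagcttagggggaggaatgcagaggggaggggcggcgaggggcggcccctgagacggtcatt
Hsph1: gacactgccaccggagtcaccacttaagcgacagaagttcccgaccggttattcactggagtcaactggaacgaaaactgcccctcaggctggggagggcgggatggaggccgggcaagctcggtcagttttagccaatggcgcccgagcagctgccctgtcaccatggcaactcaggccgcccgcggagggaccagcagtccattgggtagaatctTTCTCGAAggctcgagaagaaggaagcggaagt

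The Hspa1a window, chr17:34972157-34972406 on the minus strand, and the Hspa1b window, chr17:34959239-34959488 on the minus strand, were equal at 247 of 250 bases, and each held 1 pair that began at -104 bases from the start. The Hspe1 window, chr1:55087898-55088147 on the plus strand, held an 18-base run of 3 overlapping pairs, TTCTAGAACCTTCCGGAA, at chr1:55088059-55088076, beginning at -89 from the Hspe1 start. Hspd1 lies head to head with Hspe1, and the window of one of its 2 annotated starts shared 215 bases with the Hspe1 window, so that both genes were counted for the same run. The Hspb1 window, chr5:135887669-135887918 on the plus strand, held pairs at -117 and -97. The window of the first listed Hsph1 start, chr5:149636337-149636586 on the minus strand, held 1 pair at -33. These matches describe letters in the windows and are not measured binding.

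The levels of the members spanned more than 3 orders of magnitude, from constitutive chaperones among the most abundant RNAs of the table to inducible Hsp70 genes at the edge of detection. By mean RPKM over the 9 libraries the order was Hsp90ab1 (465), Hspa8 (350), Hsp90aa1 (150), Hspd1 (44.8), Hspb1 (33.1), Hspe1 (25.4), Hsph1 (14.4), Dnajb1 (4.60), Hspa1a (0.255) and Hspa1b (0.251). Hsp90ab1 ranked 11 and Hspa8 ranked 16 of the 24132 symbols. The ranges over libraries did not overlap between Hspa8 and Hsp90aa1, Hsp90aa1 and Hspd1, Hsph1 and Dnajb1, or Dnajb1 and Hspa1a. The other neighbours in the order overlapped, although Hsp90ab1 was above Hspa8 in 9 of 9 libraries, by 1.13- to 1.54-fold. Hspa1a was above Hspa1b in 4 of 9 libraries and these genes were not separated. Together the 10 members made up 1.02% to 1.27% of the summed RPKM of a library, of which Hsp90ab1 and Hspa8 gave 70.5% to 76.9%. Fewer cells of a type and less RNA per cell cannot be told apart in these bulk libraries.

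**Figure D1:**
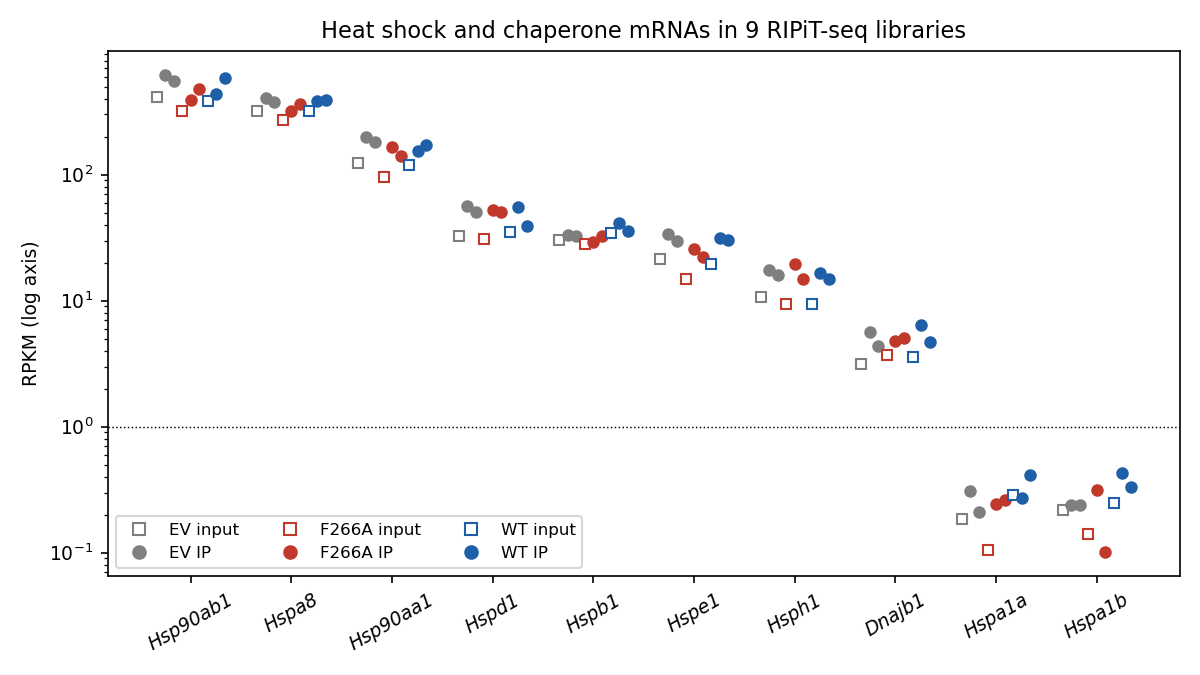
RPKM of the 10 heat shock and chaperone genes on a log axis, 1 point per library, with the 3 inputs and 6 IPs of the EV, F266A and WT lines marked. Hsp90ab1 and Hspa8 lie above 270 in every library, while Hspa1a and Hspa1b lie below 0.43 in every library.

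Part of these levels depends on how reads from repeated sequence were assigned. Of the 50-base windows of the annotated mRNA, 75.7% for Hspa8, 73.1% for Hsp90aa1, 63.0% for Hspb1, 58.5% for Hspd1 and 46.5% for Hspe1 had an exact copy elsewhere in the mm9 genome. The share was 8.30% for Hsp90ab1, 0.768% for Dnajb1 and 0 of 3753 windows for Hsph1. Only exact copies were counted, and mapping with mismatches can meet more. For Hspa1b, 62.3% of windows recurred, all of them in Hspa1a, and for Hspa1a 61.0% recurred, so the split between the pair is uncertain. How the deposited values treat a read with several places is not given in the sources used here, and the levels of genes with repeated windows are uncertain to that extent.

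**Figure D2:**
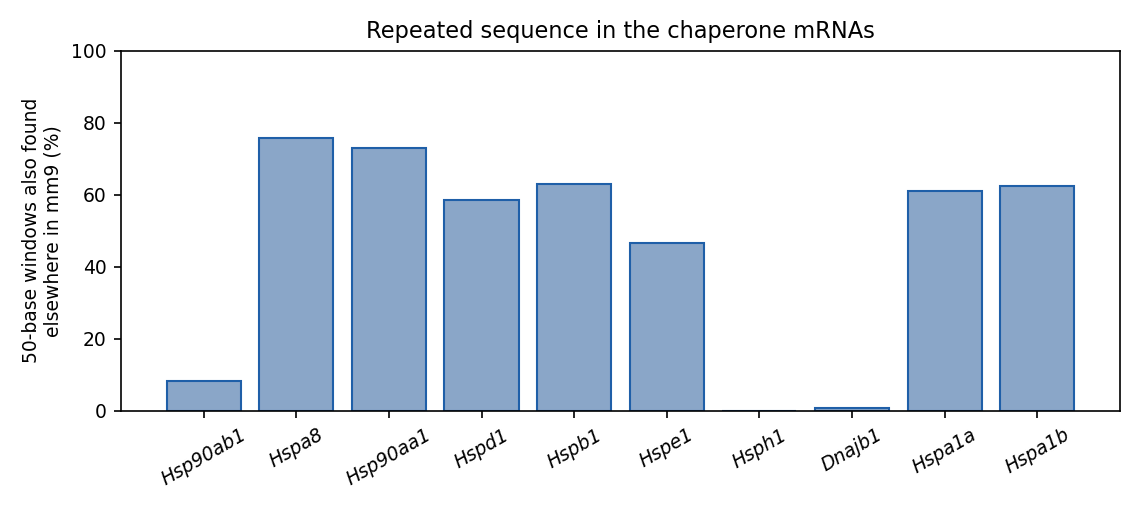
Percentage of 50-base windows of each member's mRNA that occur again exactly in the mm9 genome, 1 bar per gene. Hspa8 and Hsp90aa1 have over 70% of their windows repeated and Hsph1 has none.

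The inducible Hsp70 genes Hspa1a and Hspa1b, which encode nearly the same protein, were barely detected. Hspa1a (mm9 chromosome 17, 35106144 to 35109069, minus strand) had an RPKM of 0.184, 0.104 and 0.289 in the EV, F266A and WT inputs, 0.311 and 0.211 in the IPs of EV, 0.244 and 0.261 in those of F266A and 0.273 and 0.414 in those of WT. Hspa1b (chromosome 17, 35093381 to 35096183, minus strand) had 0.218, 0.141 and 0.248 in the inputs in the same order, 0.240 and 0.238 in the IPs of EV, 0.312 and 0.101 in those of F266A and 0.426 and 0.333 in those of WT. Both genes were lowest among the inputs in F266A, but groups overlapped and these values rest on an estimated 8.30 to 36.2 reads per library for Hspa1a and 6.93 to 32.6 for Hspa1b. At such numbers counting error alone gives a coefficient of variation of up to 34.7% and 37.97%, and both genes were below the filter and not tested between lines. Gm20481 shares 552 exon bases with Hspa1a on the opposite strand, and reads of the genes cannot be told apart where the strand is not used in counting.

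Hspa8, the constitutive Hsp70 of the cytosol, was 522- to 1101-fold above the sum of Hspa1a and Hspa1b in the same library. Hspa8 (chromosome 9, 40609067 to 40613283, plus strand) had an RPKM of 322, 270 and 321 in the EV, F266A and WT inputs, 404 and 377 in the IPs of EV, 320 and 361 in those of F266A and 385 and 390 in those of WT. Every IP was above its own input, but F266A IP replicate 1 was below the EV and WT inputs. Its IP level exceeded its input level by 0.29 ± 0.07 on the log2(RPKM + 1) scale (SE, adjusted p = 0.00563 by limma, as for every adjusted p here), close to the median of all genes tested. Snord14c, Snord14d and Snord14e lie inside the gene and share exon bases with it.

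The cytosolic Hsp90 genes differed in RPKM by about 3-fold and moved in the same direction. Repeated windows made up 73.1% for Hsp90aa1 and 8.30% for Hsp90ab1, so this ratio may depend on how reads were assigned. Hsp90ab1 (chromosome 17, 45704724 to 45710220, minus strand), which encodes the constitutive Hsp90 beta, had an RPKM of 415, 320 and 385 in the EV, F266A and WT inputs, 622 and 553 in the IPs of EV, 394 and 476 in those of F266A and 436 and 585 in those of WT. Hsp90aa1 (chromosome 12, 111928815 to 111940938, minus strand), which encodes the stress-inducible Hsp90 alpha, had 123, 95.8 and 119 in the inputs, 197 and 181 in the IPs of EV, 166 and 140 in those of F266A and 154 and 173 in those of WT. The lowest Hsp90aa1 IP was above the highest input, whereas Hsp90ab1 IPs and inputs overlapped. The ratio of Hsp90ab1 to Hsp90aa1 was 2.37 in F266A IP replicate 1, the library that stood apart, and 2.82 to 3.39 in the other 8 libraries. IP exceeded input by 0.58 ± 0.09 for Hsp90aa1 (adjusted p = 0.000711) and by 0.44 ± 0.10 for Hsp90ab1 (adjusted p = 0.00553). The call for Hsp90ab1 was lost without the EV line (adjusted p = 0.0502).

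Of the helpers of Hsp70, Hsph1 showed the largest IP to input difference of the members tested. Hsph1 (chromosome 5, 150416862 to 150438951, minus strand), an Hsp110 nucleotide exchange factor, had an RPKM of 10.6, 9.36 and 9.33 in the EV, F266A and WT inputs, 17.6 and 16.1 in the IPs of EV, 19.6 and 14.9 in those of F266A and 16.7 and 14.99 in those of WT. All 6 IPs lay well above all 3 inputs, with a difference of 0.71 ± 0.09 (1.63-fold on the RPKM + 1 scale, adjusted p = 0.000542). Dnajb1 (chromosome 8, 86132074 to 86135801, plus strand), the J protein Hsp40 that is itself induced by heat, had 3.14, 3.74 and 3.56 in the inputs, 5.69 and 4.34 in the IPs of EV, 4.77 and 5.07 in those of F266A and 6.36 and 4.72 in those of WT. Its IPs were also above its inputs without overlap, by 0.45 ± 0.10 (adjusted p = 0.00446). It rests on an estimated 144 to 429 reads per library.

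The mitochondrial chaperonin genes shared a promoter region and both rose in the IPs, but not in a fixed ratio. Hspd1 (chromosome 1, 55134679 to 55145087, minus strand), which encodes Hsp60, had an RPKM of 32.8, 30.8 and 35.3 in the EV, F266A and WT inputs, 56.7 and 50.1 in the IPs of EV, 52.4 and 50.8 in those of F266A and 55.0 and 39.5 in those of WT. Hspe1 (chromosome 1, 55144976 to 55148151, plus strand), which encodes its lid Hsp10, had 21.3, 14.8 and 19.7 in the inputs, 33.9 and 29.9 in the IPs of EV, 25.6 and 22.1 in those of F266A and 31.2 and 30.3 in those of WT. For both genes the IPs and inputs did not overlap, and the differences were 0.60 ± 0.11 for Hspd1 (adjusted p = 0.00187) and 0.61 ± 0.08 for Hspe1 (adjusted p = 0.000473). The ratio of Hspd1 to Hspe1 was 2.05 to 2.30 in the 3 F266A libraries and 1.30 to 1.80 in the other 6, a difference noticed in these values and not tested. The annotated exons of the genes share 112 bases on opposite strands, and both have many repeated windows.

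Hspb1 (chromosome 5, 136363789 to 136365433, plus strand), which encodes the small heat shock protein Hsp27 in human or Hsp25 in mouse, was the only member tested whose IPs did not pass the test against inputs. It had an RPKM of 30.5, 28.2 and 34.7 in the EV, F266A and WT inputs, 33.5 and 32.5 in the IPs of EV, 29.5 and 32.7 in those of F266A and 41.2 and 35.5 in those of WT. Each IP was slightly above its own input, and the WT IPs were the highest, with 35.5 just above the WT input of 34.7. The difference was 0.13 ± 0.08 (adjusted p = 0.155).

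Across the members, IP exceeded input for 7 of the 8 tested (Hspa8, Hsp90aa1, Hsp90ab1, Dnajb1, Hsph1, Hspd1 and Hspe1), beside 63.8% of all genes tested that were higher in IP and 0.511% that were lower, so a call of this kind is the common state of genes here. With the filter at an RPKM of 5, 7 of 8 members were called, beside 83.6% of 3791 genes called in either direction. The members' median difference was 0.52, beside 0.30 over all genes and 0.41 over the 3791 genes that reached an RPKM of 5 in 2 or more libraries. All 6 IPs lay above all 3 inputs for 5 of 8 members, beside 42.2% of genes. Every IP was above its own input for 8 of 8, beside 66.3%. The EV line, which has no tagged WDR5, shared the shift, and the share of reads on genes was 20.1% to 22.6% in the inputs and 27.2% to 29.5% in the IPs. With every library scaled to an equal share, only Hsph1 was called among the 8 members, beside 6.93% of genes. Without F266A IP replicate 1 the members called were still 7 of 8, beside 67.4% of genes called in either direction. With no filter on RPKM the members called were 5 of 10, beside 18.9% of 24132 genes, and the calls of Hspa8 (adjusted p = 0.0725) and Hsp90ab1 (adjusted p = 0.109) were lost. With each library centred on its median, the calls fell to Hsph1 (0.40, adjusted p = 0.0278) and Hspe1 (0.30, adjusted p = 0.0369), beside 4.67% of genes higher and 4.32% lower. The directions of Hspa8 and Hspb1 turned under this scaling, to -0.02 and -0.18.

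No line difference passed the test for any member. Corrected for the input of each line, 0 of 8 members were called between WT and F266A, WT and EV, WT and the mean of both controls, or F266A and EV, beside 0% of all genes in each by limma. At an unadjusted p under 0.05 these comparisons held 259 (2.65%), 173 (1.77%), 135 (1.38%) and 243 genes (2.48%), and 0 members. Between WT and the mean of F266A and EV, the differences of the members ran from -0.31 ± 0.26 for Hspd1 to 0.08 ± 0.24 for Dnajb1, with 95% intervals of plus or minus 0.46 for Hspb1 to 0.64 for Hsp90ab1. Without F266A IP replicate 1 they ran from -0.30 ± 0.27 for Hspd1 to 0.09 ± 0.18 for Hsph1, with 0 of 8 called. Changes inside these intervals were not detectable in 2 IPs a line. The intervals are for single genes and are not adjusted for the number of genes tested, whereas calls rested on the adjusted p. Changes somewhat larger than these intervals may therefore also have been missed. The Hspd1 scores were 0.77 and 0.59 for EV, 0.75 and 0.70 for F266A, and 0.62 and 0.16 for WT, so that WT IP replicate 2 was well below the other 5.

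Among the IPs alone, where the unreplicated inputs do not enter, the differences with the smallest p were lower values of Hspe1 and Hsp90ab1 in F266A, and none passed the adjusted threshold. F266A against EV gave -0.44 ± 0.19 for Hsp90ab1 (adjusted p = 0.234) and -0.41 ± 0.13 for Hspe1 (adjusted p = 0.132), 0 of 8 members being called beside 4.55% of all genes. These 2 members were at an unadjusted p under 0.05, beside 1993 genes (20.4%). Without F266A IP replicate 1, which had the lowest Hsp90ab1 level of the IPs, the differences were -0.30 ± 0.23 for Hsp90ab1 (adjusted p = 0.478) and -0.51 ± 0.15 for Hspe1 (adjusted p = 0.0956), with 0 of 8 called beside 4.90%. WT against F266A gave 0.36 ± 0.13 for Hspe1 (adjusted p = 0.238) and 0.29 ± 0.13 for Hspb1 (adjusted p = 0.343), 0 of 8 called beside 1.16%, with 1 member, Hspe1, at an unadjusted p under 0.05 beside 1514 genes (15.5%). Without F266A IP replicate 1 these were 0.46 ± 0.15 for Hspe1 (adjusted p = 0.175) and 0.22 ± 0.16 for Hspb1 (adjusted p = 0.508), with 0 of 8 called beside 196 of 9787 genes. WT against EV gave 0.21 ± 0.13 for Hspb1 (adjusted p = 0.881) and -0.22 ± 0.19 for Hsp90ab1 (adjusted p = 0.899), 0 of 8 called beside 0%, with 557 of all genes (5.69%) and 0 members at an unadjusted p under 0.05. Both F266A IPs were below the other 4 for Hspa8 and Hspe1 (2 of 8 members, beside 17% of genes), and F266A IP replicate 2 on its own was also below those 4 for both genes. Both EV IPs were above the others for Hsp90aa1 (1 of 8, beside 10.4%), and both WT IPs were above for Hspb1 (1 of 8, beside 5.7%). The opposite orders, with EV lowest, F266A highest or WT lowest, held for 0 of 8 members, beside 11.9%, 12.8% and 4.56% of genes. These comparisons share libraries with each other. The F266A input was likewise the lowest input for 6 of 8 members, beside 58.9% of genes, for 5 of 8, beside 41.5%, after centring of each library, and for 1 of 8, Hspe1, beside 39.3%, after quantile normalization.

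**Figure D3:**
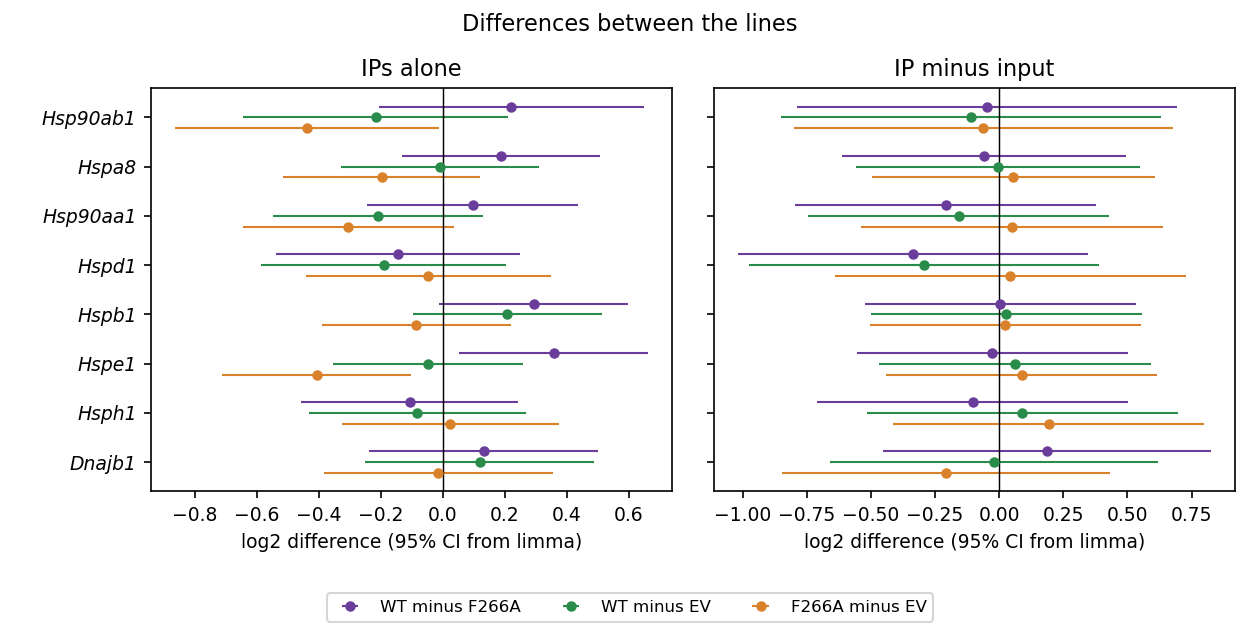
Differences between lines in log2(RPKM + 1) for the 8 members tested, for the IPs alone and for IP minus input, with 95% confidence intervals from limma. After adjustment over all 9787 genes none passed the threshold, and the intervals are wider for IP minus input.

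The rule that the study used for WDR5-bound RNA asks that both WT scores be positive and exceed every one of the 4 control scores (F266A and EV). As applied here to log2(RPKM + 1) of the deposited symbols, 0 of the 10 members met it, beside 4.79% of all symbols. The paper used a wider transcriptome with predicted RNAs and names no pseudocount, so these are not its own calls. The margin of the lower WT score over the highest control was -0.11 for Hspa1b, the nearest member, and down to -0.62 for Hspd1. Without F266A IP replicate 1, Hspa1b met the rule, on an estimated 6.93 to 32.6 reads per library, beside 8.19% of symbols. Without WT IP replicate 1 Hsp90ab1 met it, beside 13.9%, and without WT IP replicate 2 Hspb1 met it, beside 13.4%. With the mean of the 3 inputs as common input, Hspa1b and Hspb1 met it, beside 4.37%. No member met it under more than 2 of these settings.

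The wider chaperone system shared the shift of most genes towards the IPs, and none of its tested genes was called between lines. Of 131 genes in 10 lists, 103 were tested, and 79 were higher in IP and 0 lower, with a median difference of 0.36, beside 63.8% of all genes higher and an all-gene median of 0.30. After centring of each library the median of these genes was 0.05, beside -0.01 over all genes. Of the inducible HSF1 targets other than the members 8 of 12 rose, a share near that of all genes, with 0 called higher after centring. Among those that rose were Chordc1 (0.69), Cacybp (0.53) and Fkbp4 (0.47), of which Chordc1 and Fkbp4 encode partners of Hsp90. In the heat shock factor list the 3 genes tested all rose. They were the factor genes Hsf1 (0.63) and Hsf2 (0.57), and Hsbp1 (0.52), which encodes an HSF1-binding protein and not a factor. Of the other Hsp70 and Hsp110 genes 5 of 5 rose, led by Hspa5 (0.63), the Hsp70 of the endoplasmic reticulum, and both other Hsp90 genes rose, Trap1 of mitochondria (0.37) and Hsp90b1 of the endoplasmic reticulum (0.36).

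Among the partners of these chaperones, 21 of 31 J proteins rose, led by Dnajc8 (0.64), with a median difference of 0.31, and 22 of 28 co-chaperones, with a median of 0.37, led by the Hsp90 co-chaperone p23 gene Ptges3 (0.87) and the ubiquitin ligase gene Stub1 (0.70). Of the cytosolic chaperonin and prefoldin genes 12 of 13 rose, among them Cct6a (0.86) and Vbp1 (0.61). Of the mitochondrial list 8 of 11 rose, of the endoplasmic reticulum list 15 of 17 and of the other small heat shock proteins 2 of 4, Hspb6 (0.55) and Hspb8 (0.39). The medians of these lists were 0.30, 0.35 and 0.30, beside 0.30 over all genes, and the count of J proteins lay near the 63.8% of all genes that rose. After centring of each library, 6 list genes were higher (Cct6a, Stub1, Dnajc8, Hsf1, Vbp1 and Dnajb6) and Dnajc27 was among those lower, beside the 4.67% and 4.32% of all genes given above. None of the 103 was called in any of the 7 comparisons between lines.

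**Figure D4:**
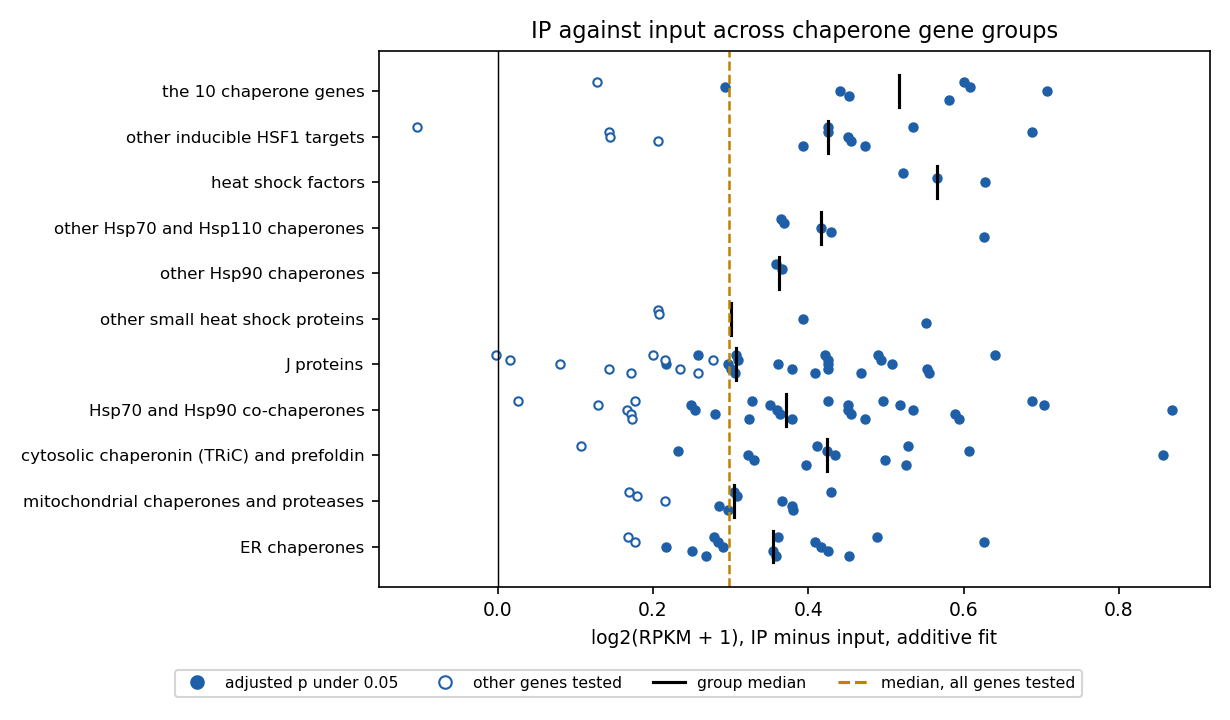
Difference between IP and input in log2(RPKM + 1) for each tested gene of the 10 members and of 10 lists of chaperone and heat shock genes, with filled points at an adjusted p under 0.05, a bar at each group's median and a dashed line at the median of all genes tested (0.30). The median of the members is 0.52 and 1 of their 8 points is open.

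How closely the members followed each other over the libraries varied by pair. Pearson's r of log2(RPKM + 1) over the 9 libraries, which share lines and the IP to input shift, was 0.28 to 0.95 over 28 pairs of tested members, with a median of 0.72. It was lowest for Hsph1 with Hspb1 and highest for Hsp90aa1 with Hspe1. Among the genes tested, the closest to each member were none of the members and in none of the chaperone lists. They were Rps7 for Hspa8, Sin3a for Hsp90aa1, Smn1 for Hsph1, Sub1 for Hspd1 and Mcm3 for Hspe1, each at an r of 0.99. For the others they were 2010107G23Rik for Hsp90ab1 at 0.98, Spag7 for Dnajb1 at 0.97 and Thumpd2 for Hspb1 at 0.96. With 9787 genes compared over 9 libraries, a closest gene outside so few members is likely whatever the profile. No conclusion is drawn from it.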

How the data were processed

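RIPiT-seq reads of 50 nt from 9 libraries were mapped by the authors to mm9 with TopHat 1.1.3, per the submitters' processing notes, and the authors deposited RPKM per gene symbol from their own script. RPKM are already scaled by length and mapped reads, so no count test was used. Values were tested as log2(RPKM + 1) with limma 3.58.1 (lmFit and eBayes with a trend, in R 4.3.3) on the 9787 genes that reached an RPKM of 1 in 2 or more libraries, with Benjamini-Hochberg adjustment and a threshold of 0.05. IP against input used line as an additive term, and line comparisons used 1 coefficient per line and fraction. The pseudocount makes the change of low genes look smaller than it is.

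The fit was tested on simulated data. Reads were estimated from the smallest step of RPKM times exon length, and cover counting error only, since PCR copies are not independent. No pair of libraries was identical in any row above 0. Positions and mRNA windows came from GENCODE M1 on mm9, and promoters from RefSeq on GRCm38.p6. Genes named were drawn from the 10 members, the closest genes by r, and up to 3 called genes per list and comparison. Where none was called, the 2 with the highest mean RPKM were taken, and not every gene so chosen is named. Also named were cell type markers, Y-linked genes, Wdr5, genes that overlap members and some list genes below an RPKM of 1. The members and lists were chosen with earlier results of these data known. Genes called after centring and the Hspd1 to Hspe1 ratio were named after their values were seen. The values of 1 list gene are not reported here. Alternatives were other pseudocounts, filters, scalings, a common input, a replicate block and leaving out libraries. The remaining steps ran in Python 3.11.15 (matplotlib 3.10.9, numpy 2.4.6, pandas 2.3.3).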

Additional observations from a re-analysis of the deposited data

How the results depend on the processing

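For IP against input, 6297 genes were called, 4077 to 6595 with libraries left out in turn, 3168 with a filter at an RPKM of 5, 4555 with none, 616 after quantile normalization, 880 after centring each library and 678 with an equal share of reads on genes, a setting chosen after seeing the data. Members called fell from 7 of 8 to 5 of 10 without a filter, where Hspa8 and Hsp90ab1 lost their calls, to 2 with quantile normalization, where Hspa8 (-0.28, adjusted p = 0.0393) and Hspb1 (-0.36, adjusted p = 0.0160) were called lower and Hsp90ab1 turned to -0.23, to 2 with centring, where Hspa8 was at -0.017 and Hspb1 at -0.18, and to 1, Hsph1, with the equal share, where Hspa8 was at -0.10 and Hspb1 at -0.25. Hsp90aa1 in F266A against EV among the IPs turned to 0.20 with quantile normalization. No alternative called a member between lines.

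Counts of all genes moved more. Input-corrected, without a filter the calls were 471 (WT against F266A), 473 (WT against EV), 587 (WT against both controls) and 457 (F266A against EV), from 0. A common input, the mean of the inputs, cancels between lines. The counts with it, 114 for WT against F266A and 445 for F266A against EV, are therefore those of the IPs alone. A pseudocount of 0.1 gave 88 for F266A against EV. Among the IPs alone, WT against F266A went from 114 to 48 without a filter and 0 to 196 with IPs left out, the latter without F266A IP replicate 1. F266A against EV went from 445 to 13 without a filter, 242 with quantile normalization, 279 with the equal share and 0 to 480 with IPs left out. WT against EV went from 0 to 40 without a filter, 4 with a filter at 5, 2 with quantile normalization and 0 to 7 with IPs left out. The rule of the study, as applied here, was met by 1157 symbols, 723 with centred scores and, with IPs left out, 1426 to 3354. Members that met it were 0, 2 with the mean of the inputs and 0 to 1 with IPs left out. Members lowest in the F266A input fell from 6 to 1 with quantile normalization. The causes were not tested.

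Deviations of same-numbered IPs correlated at 0.26 (WT with F266A), 0.11 (WT with EV) and 0.01 (F266A with EV). Whether same-numbered IPs were processed together is not given by the labels. With the replicate number as a block, calls for IP against input went from 6297 to 6550. Among the IPs alone they went from 114 to 154 (WT against F266A), 445 to 607 (F266A against EV) and 0 to 7 (WT against EV). Members called stayed at 7 for IP against input and 0 for the line comparisons.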

Other observations

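Of 130 list genes with a row in the table, 25 stayed below an RPKM of 1 in all 9 libraries. They held the Hsp70 genes Hspa1l (highest 0.241), Hspa2 (0.680) and Hspa4l (0.499), the lens crystallin chaperone gene Cryaa (0.104, at 0 in 6 libraries), and the small heat shock protein gene Hspb3 (0.0484, at 0 in 5 libraries). Dnajb8 was at 0 in all 9. Among the most abundant list genes outside the members was the chaperonin subunit gene Cct6a, with a mean RPKM of 80.2 (44.1 to 105).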
